A study of Mus musculus with 11 samples.

Results

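Itgam, Coro1a, Ptprc and Aif1 are genes known from blood-derived cells and from the resident macrophages of the brain. They were followed in the embryonic neocortex of mice without munc18-1, the protein of the presynaptic terminal that is needed for transmitter release. They were chosen by name, as the probes whose platform symbol is 1 of these 4, because their log ratios of null over wild type did not go up when other macrophage genes did. Each has 1 probe, so they make up 4 of the 6041 genes and 4 of the 6856 probes of the array. The ratio of null over wild type was the value that chose them, and it is therefore described below without a test.

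RNA of neocortex was taken at embryonic day 18 on a C57BL/6 background, and both sides of every comparison share that tissue and background. Each of 11 two-colour arrays set 1 munc18-1 null sample against wild-type RNA, which the design text calls pooled and which is read here as 1 common pool. The null RNA carried the dye Cy3 on the 6 arrays 1, 2, 6, 7, 8 and 10 and Cy5 on the 5 arrays 3, 4, 5, 9 and 11, with the pool in the other dye. The wild-type channel of arrays 1 and 6 has day 14 in 1 label and day 18 in another. In whole tissue, fewer cells of a type and less RNA per cell cannot be told apart.

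Microglia are the macrophages of the brain and seed it early in embryonic life. Itgam, Ptprc and Aif1 are in common use to mark or sort them, but each of these, like Coro1a, is also made by other leukocytes. Itgam encodes CD11b, the alpha chain of complement receptor 3, and pairs with the beta chain Itgb2 to bind complement fragments and intercellular adhesion molecules. Ptprc encodes CD45, a transmembrane tyrosine phosphatase that acts on Src-family kinases. Coro1a encodes coronin 1A, an actin-binding protein that acts with the Arp2/3 complex, and Aif1 encodes Iba1, a calcium-binding protein that bundles actin in ruffling membranes.

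The transcription factors PU.1 and RUNX1 are known to direct gene expression in myeloid cells, and PU.1 is known to act at the promoter of Itgam. The 4 promoters are therefore shown beside the ratios that follow. Each sequence is the reference sequence of RefSeq on GRCm38.p6, from 250 bases before a start site of the gene to 50 after it, 5′ to 3′ on the gene's own strand. That start site is the outer end of the gene for Itgam and Coro1a, but lies 451 bases inside the outer end for Ptprc and 31 bases inside it for Aif1. Capitals mark the core GAGGAA of PU.1 sites or its reverse complement TTCCTC. Itgam lies on the plus strand at chr7:128062390-128062689. The others lie on the minus strand, Ptprc at chr1:138175256-138175555, Coro1a at chr7:126704767-126705066 and Aif1 at chr17:35176003-35176302.
Itgam: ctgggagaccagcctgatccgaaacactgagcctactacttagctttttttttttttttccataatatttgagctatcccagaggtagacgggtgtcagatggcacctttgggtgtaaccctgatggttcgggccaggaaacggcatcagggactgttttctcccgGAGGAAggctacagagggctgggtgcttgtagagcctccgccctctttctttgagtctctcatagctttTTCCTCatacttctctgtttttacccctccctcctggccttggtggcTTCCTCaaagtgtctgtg
Ptprc: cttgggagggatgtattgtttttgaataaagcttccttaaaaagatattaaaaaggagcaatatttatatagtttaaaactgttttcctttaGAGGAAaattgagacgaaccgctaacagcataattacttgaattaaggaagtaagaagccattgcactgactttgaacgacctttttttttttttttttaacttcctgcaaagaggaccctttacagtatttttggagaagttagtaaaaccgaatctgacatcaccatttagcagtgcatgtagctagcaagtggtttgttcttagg
Coro1a: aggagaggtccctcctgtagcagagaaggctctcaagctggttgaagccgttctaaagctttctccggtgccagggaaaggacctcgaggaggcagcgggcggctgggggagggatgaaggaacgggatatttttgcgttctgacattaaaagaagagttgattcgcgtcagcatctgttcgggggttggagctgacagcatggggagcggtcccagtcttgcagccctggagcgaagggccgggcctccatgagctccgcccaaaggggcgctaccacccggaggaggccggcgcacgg
Aif1: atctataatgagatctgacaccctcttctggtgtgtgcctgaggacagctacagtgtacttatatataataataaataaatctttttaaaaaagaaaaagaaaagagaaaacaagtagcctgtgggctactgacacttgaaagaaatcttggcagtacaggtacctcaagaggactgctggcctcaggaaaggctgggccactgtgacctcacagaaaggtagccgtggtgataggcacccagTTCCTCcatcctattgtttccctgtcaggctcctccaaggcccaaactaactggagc
Itgam held the PU.1 core at 3 places, starting at -84, -15 and 32, where 0 is the first base at the start site of its window. Counted from the start site of their own windows, Ptprc held 1 at -158 and Aif1 held 1 at -7, which are 293 and 24 bases inside the outer ends of these genes. In Coro1a these letters were not found, nor in the further promoters that RefSeq gives Ptprc at chr1:138175077-138175376 and Coro1a at chr7:126704171-126704470. The RUNX core TGTGGT, or ACCACA on the other strand, was in 0 of the 4 genes, so no match overlapped another. Of all 32851 RefSeq promoters of this length, 28.3% held the PU.1 core and 16.8% the RUNX core. These matches are strings of letters in a window and no measure of binding.

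The direction of the deposited ratios was taken as null over wild type. Xist, which is made from the inactive X chromosome of females, was between -7.37 and -4.18 on 6 arrays of both dye orientations and between 0.00 and 0.67 on 4, with no value on 1. A wild-type pool that held females would give such values in this direction. The log base is assumed to be 2. Arrays 9 and 10 stood apart from the others of their dye. Array 10 correlated at 0.27 with the Cy5-minus-Cy3 pattern of the remaining arrays, where the other Cy3 arrays lay between -0.63 and -0.42. Array 9 correlated at -0.17, where the other Cy5 arrays lay between 0.02 and 0.34. The ratios of the 4 genes are given with and without them. List counts and calls of named genes that changed without them are given with their list or at the end. The labels number the null samples separately but do not say that they came from separate embryos, so errors and p-values measure the spread between these samples.

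Itgam, whose product is the receptor chain CD11b, was lower in null than in wild-type neocortex on every array. Its probe represents a gene at chr7:128062640-128118491. The log2 ratios on arrays 1 to 11 were -0.22, -0.17, -0.24, -0.16, -0.18, -0.25, -0.13, -0.26, -0.13, -0.18 and -0.12. Cy3 and Cy5 arrays overlapped, and 11 of 11 values lay below 0. The modelled log2 ratio was -0.18 ± 0.04 (SE, n = 11), a level of 88.1% of wild type. Of the 5399 probes tested, 701 had a lower ratio. Itgam was also the most even of all tested probes. Its SD over arrays was 0.0497, 0 of the 5399 probes had a smaller one, the next was 0.0516 and the median probe had 0.206. Within the dye orientations 0.0185% of probes had a smaller SD. Among the 100 probes of smallest SD, 12, Itgam included, had a ratio at or below that of Itgam, and their median log2 ratio was -0.05. The level of the signal behind these ratios is not known here.

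Ptprc, which encodes CD45, lies at chr1:138062859-138175756. Its log2 ratios on arrays 1 to 11 were 0.15, -0.27, -0.43, -0.08, -0.23, -0.19, -0.11, -0.22, -0.25, -0.54 and -0.16. Array 10 was the lowest, array 1 was the highest and the only value above 0, and the dye orientations overlapped. The modelled ratio was -0.21 ± 0.06 (SE, n = 11), or 86.2% of wild type, and 10.3% of probes were lower. Without arrays 9 and 10 it was -0.18 ± 0.06 (SE, n = 9).

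Coro1a, which encodes coronin 1A, lies at chr7:126699774-126704816. The cells of this whole tissue that made its RNA are not known. The log2 ratios of Coro1a on arrays 1 to 11 were -0.05, 0.02, -0.46, -0.81, -0.26, -0.02, -0.08, -0.10, -0.24, -0.49 and -0.42. The 5 Cy5 arrays and array 10 were at or below -0.24, and the other 5 Cy3 arrays lay between -0.10 and 0.02. The modelled ratio was -0.28 ± 0.06 (SE, n = 11), or 82.4% of wild type, and 6.70% of probes were lower. Its SD over arrays, 0.257, was larger than that of 70.8% of probes, against 35.3% for Ptprc.

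Aif1, the gene of the microglial marker Iba1, lies at chr17:35170986-35176083. Its log2 ratios on arrays 1 to 11 were -0.10, 0.15, 0.10, -0.05, 0.00, -0.17, -0.04, -0.08, 0.12, 0.04 and -0.06. They lay on both sides of 0, with 6 below and 5 above. The modelled ratio was -0.01 ± 0.04 (SE, n = 11), or 99.5% of wild type, and 49.5% of probes were lower. The SD was 0.101, and 2.82% of probes had a smaller one.

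**Figure D1:**
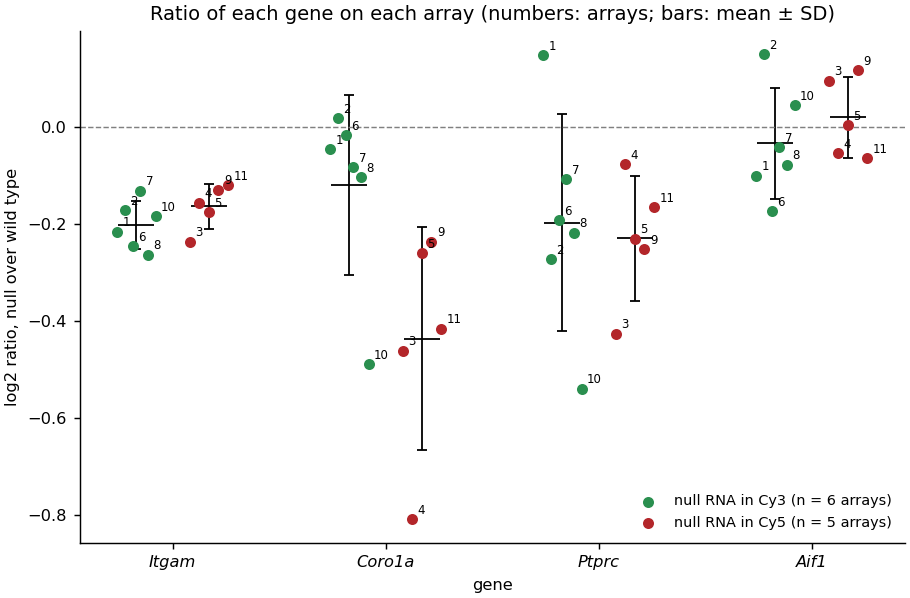
Log2 ratio of null over wild type (vertical axis) of Itgam, Coro1a, Ptprc and Aif1 on each of the 11 arrays, with arrays numbered, the dye of the null RNA in colour, and bars for mean ± SD. Itgam stays between -0.26 and -0.12, Coro1a reaches -0.81 on array 4, and Aif1 lies on both sides of 0.

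The 4 genes did not keep a fixed order. Aif1 was the highest of them on 9 arrays and the lowest on 0, Coro1a was the lowest on 4, Itgam on 4 and Ptprc on 3. From the lowest ratio up, the order was Coro1a, Ptprc, Itgam and Aif1. The first 3 differed from each other by less than the SD of Coro1a or of Ptprc over arrays. The median of the 4 ratios was -0.20, where the median of all tested genes was -0.0052. Across all probes limma called 28.6% at an adjusted p under 0.05, 14.7% higher and 14.0% lower; since the 4 genes were chosen on this contrast, nothing is read from it for them.

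**Figure D2:**
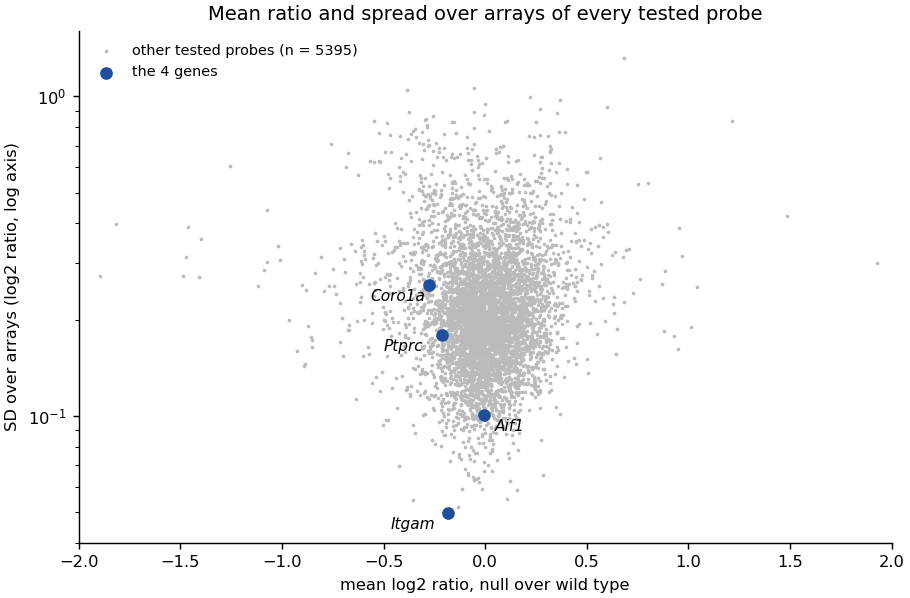
Mean log2 ratio of null over wild type (horizontal axis) and SD over arrays (vertical axis, log scale) of the tested probes, with Itgam, Coro1a, Ptprc and Aif1 marked and 2 probes outside the axes. Itgam sits at the lower edge of the cloud with an SD of 0.0497.

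Which dye the null RNA carried is independent of the mean ratio, and its effect on the 4 genes could be tested. For Coro1a the Cy3 mean was -0.12 ± 0.19 (SD, n = 6) and the Cy5 mean -0.44 ± 0.23 (SD, n = 5). The difference of -0.32 ± 0.12 (SE) did not pass with limma (adjusted p = 0.151), and an exact two-sided permutation test of the arrays gave p = 0.0368, or 0.147 adjusted over the 4 genes. For the other 3 the differences were 0.04 ± 0.07 for Itgam, -0.03 ± 0.11 for Ptprc and 0.05 ± 0.08 for Aif1 (SE), with limma adjusted p of 0.776, 0.887 and 0.735. Thus 0 of the 4 passed with limma, 1 of 4 at an unadjusted p under 0.05, where 0.0741% of all probes passed and 22.4% had an unadjusted p under 0.05. The Cy3 and Cy5 values lay apart for 0 of the 4 genes and for 5.61% of all probes.

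Arrays 9 and 10 weigh on this difference. They stood apart because they go against the dye pattern of the other arrays, so leaving them out selects for that pattern, and the values without them are a description with no test. The Cy3 mean of Coro1a was then -0.05 and its Cy5 mean -0.49, a difference of -0.44 ± 0.11 (SE), and without array 10 alone the difference was -0.39. The ratio of Coro1a itself was -0.27 ± 0.06 (SE, n = 9) without both arrays. It was -0.18 ± 0.04 (SE, n = 8) without arrays 3, 4 and 10, on which Coro1a was lowest. For Itgam and Aif1 the ratios without arrays 9 and 10 were -0.19 ± 0.04 and -0.03 ± 0.05 (SE, n = 9).

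Among the tested integrin partners and ligands, Cd47 had the lowest ratio. The 8 tested genes are too few to compare their share of calls with that of all genes. Of 25 integrin partners and ligands, 8 were tested, of which 1 rose and 2 fell, with a median log2 ratio of -0.05; over all 4811 genes, 14.5% rose and 14.4% fell. With 1 array left out, 0 to 1 rose and 1 to 2 fell. Itgb2, the beta chain that CD11b needs to reach the cell surface, had log2 ratios on arrays 1 to 11 of 0.83, 0.60, -1.52, -0.93, -1.28, 0.16, 0.17, 0.30, 0.14, -1.14 and -0.04. Values at or below -0.93 came from arrays 3, 4, 5 and 10, and the others lay above -0.05. Its ratio of -0.29 ± 0.18 (SE, n = 11) did not pass with limma (adjusted p = 0.242), nor did -0.27 ± 0.13 without arrays 9 and 10 (SE, n = 9; adjusted p = 0.131). Itgb2 thus spread far more widely over the same arrays than Itgam did. Itgal, the alpha chain of the lymphocyte integrin LFA-1, was at -0.04 ± 0.06 and did not pass. Cd47, the membrane protein that restrains phagocytes, fell by 0.31 ± 0.08 on the log2 scale (SE, n = 11; limma adjusted p = 0.0090). Skap2, an adaptor in integrin activation, rose by 0.19, and Tln1, or talin, which links integrins to actin, fell by 0.19. The call of Skap2 was lost without array 5 or 11 (limma adjusted p 0.0602 to 0.0728), and that of Tln1 without array 1, 2, 5, 6, 7 or 11 (0.0541 to 0.161). The ligand Icam2 was at 0.18 ± 0.12 and did not pass. Itgax, Itgb1 and Icam1 had too few values to be tested.

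Around Ptprc, 12 of 24 CD45 substrates and partners were tested, 0 rose and 2 fell, with a median of 0.01. With 1 array left out, 0 to 1 rose and 2 to 3 fell. Lcp2, the adaptor SLP-76 of leukocyte receptor signalling, was below 0 on each of the 8 arrays with a value, from -0.87 to -0.27 with a median of -0.51. It fell by 0.55 ± 0.07 (SE, n = 8; limma adjusted p = 0.00038). Jak1, a cytokine receptor kinase that CD45 can act on, fell by 0.19 ± 0.05. The Src-family kinases Fyn, at -0.06 ± 0.07, and Src, at -0.07 ± 0.06, did not pass, nor did Csk, the kinase that opposes CD45 on them, at 0.06 ± 0.10. Of 25 phosphatases of the receptor type or of leukocytes, 18 were tested, of which 1 rose and 0 fell, with a median of -0.04. Leaving out single arrays gave 0 to 2 that rose and 0 to 2 that fell. The 1 that rose was Ptpn6, the leukocyte phosphatase SHP-1, by 0.15 ± 0.04 (SE, n = 10; limma adjusted p = 0.0202), and its call was lost without array 7, 9 or 11 (0.0502 to 0.0601). Ptpre was at -0.20 ± 0.07 with a limma adjusted p of 0.0523, and passed without array 1 (0.0367) or array 4 (0.0449).

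Around Coro1a, 9 of 20 genes of coronins, of the Arp2/3 complex and of actin turnover were tested, with 2 higher, 2 lower and a median of -0.03. Arpc1b, the Arp2/3 subunit common in blood cells, was above 0 on 11 of 11 arrays, from 0.01 to 0.68, and rose by 0.35 ± 0.05 (SE; limma adjusted p = 0.00018). Its Cy3 mean was 0.51 and its Cy5 mean 0.20. Pfn1, or profilin, rose by 0.26 ± 0.06, with a Cy3 mean of 0.05 and a Cy5 mean of 0.46. Wdr1 and Cfl1, which act together in cutting actin filaments, fell by 0.22 each, and the call of Cfl1 was lost without array 1, 3, 4, 6, 7, 10 or 11 (limma adjusted p 0.0576 to 0.0953). The coronins Coro1b, at 0.05 ± 0.05, and Coro1c, at -0.23 ± 0.16, did not pass. Coro1c ranged from -1.34 to 0.43, with its lowest values on arrays 3, 4, 5 and 10, and was at -0.24 ± 0.11 without arrays 9 and 10 (SE, n = 9; limma adjusted p = 0.135). With 1 array left out, 2 genes of this list rose and 1 to 2 fell.

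The actin regulators of leukocytes, the group nearest to Aif1 in function, had 10 of 20 genes tested, 3 that rose, 0 that fell and a median of 0.08. With 1 array left out, 1 to 3 rose and 0 to 2 fell, and without arrays 9 and 10 it was 2 and 2. Lcp1, the leukocyte fimbrin that bundles actin with Iba1, was above 0 on 10 of 11 arrays and rose by 0.32 ± 0.07 (SE; limma adjusted p = 0.0023). Capg rose by 0.17 and Tmsb4x by 0.11, but both calls were lost when single arrays were left out. That of Capg was lost without array 2, 3, 6, 7, 8 or 11 (limma adjusted p 0.0571 to 0.0656), and that of Tmsb4x without any but array 2 or 3 (0.0508 to 0.0937). Rac2, at -0.0050 ± 0.05, and Vav1, at 0.08 ± 0.06, did not pass.

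**Figure D3:**
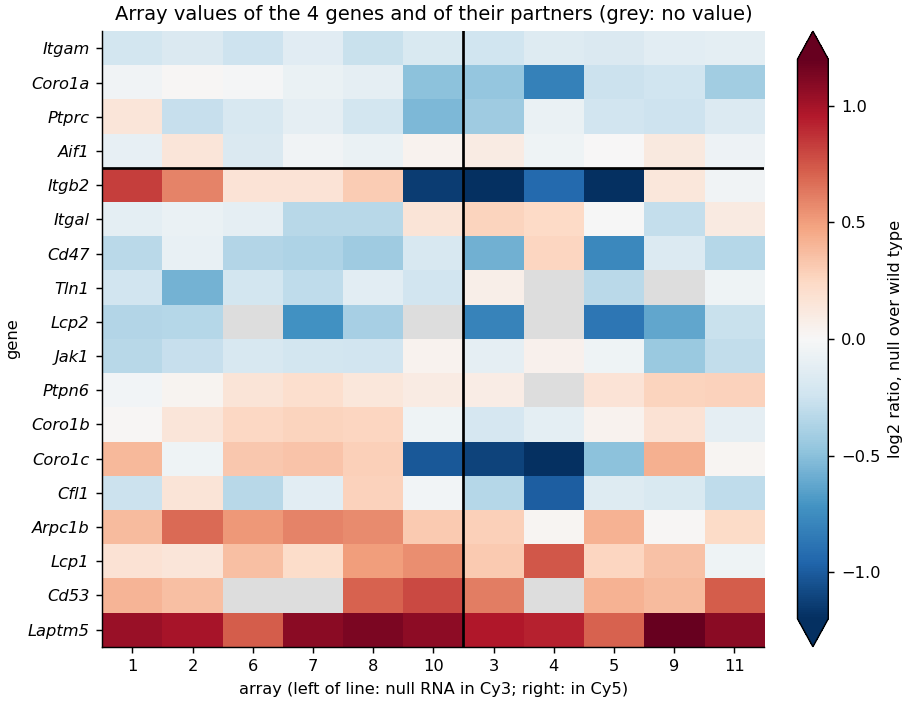
Log2 ratio of null over wild type (colour) of the 4 genes and of other genes of the lists (rows) on each array (columns, Cy3 arrays left of the line and Cy5 arrays right of it, grey for no value). Itgb2 and Coro1c are lowest on arrays 3, 4, 5 and 10, whereas Itgam differs little between arrays.

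Many listed phagocytic, lysosomal and microglia genes went up on these arrays. In whole tissue the cells that made this RNA are not known. Of 24 tested phagocytic and lysosomal genes of 39 listed, 17 rose and 1 fell, with a median of 0.30. C1qc and C1qa, chains of the complement protein C1q, rose by 0.88 ± 0.06 and 0.73 ± 0.06 and were above 0 on 11 of 11 arrays, as was Apoe, the lipid carrier, at 0.95 ± 0.07 (SE). Msr1, a scavenger receptor, was the 1 that fell, by 0.21 ± 0.05 and on 10 of 11 arrays. It is thus a macrophage gene outside the 4 whose ratio lay close to those of Itgam and Ptprc. Of 11 tested homeostatic microglia genes of 33 listed, 7 rose and 0 fell, with a median of 0.27. Of these 11, 3 had values on all arrays, and the median of those 3 by array lay between -0.31 and 0.21. With 1 array left out, 16 to 17 phagocytic genes and 5 to 7 homeostatic genes rose. Among them Adgre1, a surface receptor of macrophages, rose by 0.71 ± 0.09 (SE, n = 8) and Irf8 by 0.27 ± 0.05. Csf1r had no probe with this name, and Cx3cr1, Tyrobp and Spi1, which encodes PU.1, had too few values to be tested.

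Among pan leukocyte genes, Laptm5 and Cd53 rose most. Of 16 tested of 31 listed, 5 rose and 1 fell, with a median of 0.04. Leaving out single arrays gave 4 to 6 that rose and 0 to 1 that fell. Laptm5, a lysosomal membrane protein of blood cells, had log2 ratios from 0.70 to 1.40 and rose by 1.01 ± 0.06 (SE, n = 11). It is also in the phagocytic and lysosomal list and is counted as a gene that rose in both. Cd53, a tetraspanin of leukocytes, was above 0 on each of the 8 arrays with a value and rose by 0.55 ± 0.07. Runx1 rose by 0.18 ± 0.05, with 0.22 and 0.08 for its separate probes. Spn, or CD43, rose by 0.31 ± 0.09 but was at -0.08 on the Cy3 arrays alone. Csf2rb2, a cytokine receptor subunit, was the 1 that fell, by 0.19 ± 0.07 (limma adjusted p = 0.0423). Its call was lost without array 1, 2, 5, 6, 7, 8, 9 or 11 (0.0717 to 0.0998). The lowest array of Laptm5 or of Cd53 lay above the highest array of Itgam, Coro1a, Ptprc or Aif1, which describes genes chosen for that difference.

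**Figure D4:**
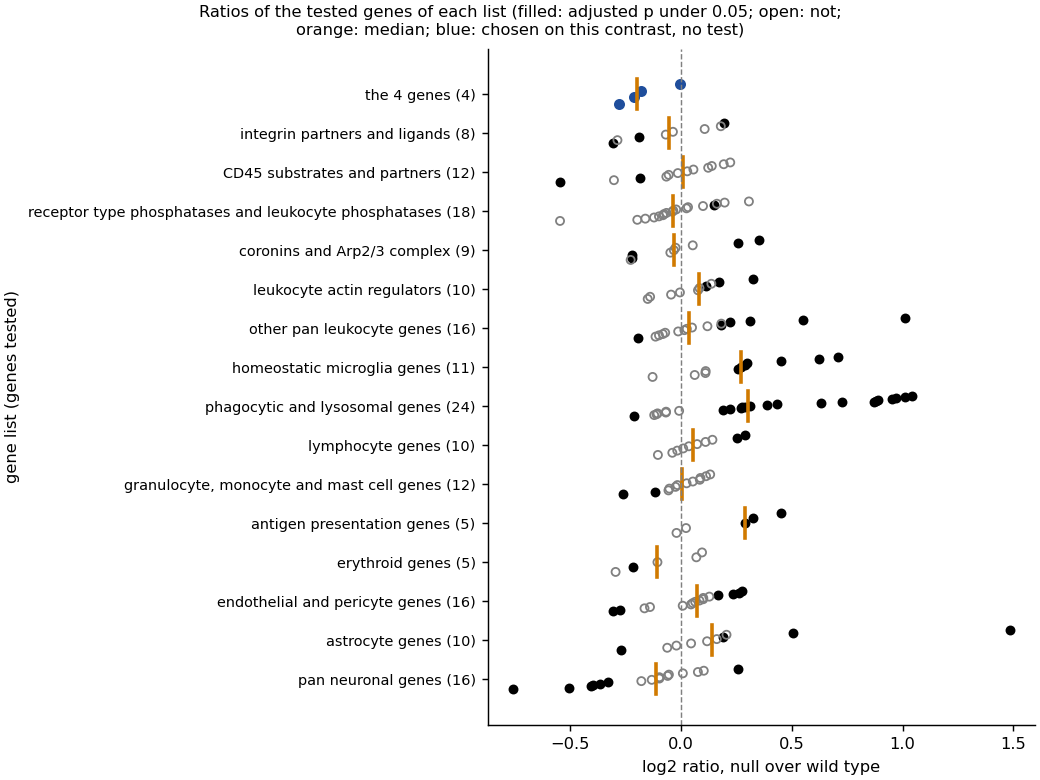
Log2 ratio of null over wild type (horizontal axis) of every tested gene of each list (rows, with the number of genes), filled where the adjusted p was under 0.05, with the list median in orange and Itgam, Coro1a, Ptprc and Aif1 in blue without a test. Phagocytic and lysosomal genes have a median of 0.30, and the 4 genes lie between -0.28 and -0.01.

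Markers of the other cells that neocortex could hold were counted in the same way. Of lymphocyte genes, 2 of 10 tested rose and 0 fell, with a median of 0.05. They were Prf1 (0.29 ± 0.07) and Il2ra (0.25 ± 0.09), the latter lost without array 1, 5, 6, 7, 8 or 11 (limma adjusted p 0.0580 to 0.193). Of granulocyte, monocyte and mast cell genes, 0 of 12 rose and 2 fell, with a median of 0.00. These were Epx, the eosinophil peroxidase (-0.26 ± 0.06), and Chil3 (-0.12 ± 0.04), whose call was lost without array 5, 6, 7, 8 or 11 (0.0577 to 0.0711). Of antigen presentation genes, 3 of 5 rose, among them B2m by 0.45 ± 0.11 and Cd86 by 0.32 ± 0.05, with a median of 0.29. Of erythroid genes, 1 of 5 fell, Car2 by 0.22 ± 0.06, with a median of -0.11. Endothelial and pericyte genes had 4 of 16 higher and 2 lower with a median of 0.07, but with any 1 array left out 1 to 3 were higher and 1 to 3 lower. Astrocyte genes had 3 of 10 higher and 1 lower with a median of 0.14, and 2 to 4 higher with 1 array left out. Neuronal genes had 1 of 16 higher and 6 lower with a median of -0.12, among them Gap43, which fell by 0.50 ± 0.04, and Stx1a, by 0.76 ± 0.14 (Cy3 mean -0.32, Cy5 mean -1.19). Whether these other cells take part in the ratios of the 4 genes was not tested.

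Whether the 4 genes varied together from array to array was tested on deviations from the mean of each dye orientation. For the 6 pairs of the 4 genes Pearson's r lay between -0.57 and 0.26, and 0 of 6 passed a permutation test adjusted over the 10 relations of this family (adjusted p 0.167 to 0.961). The lowest was that of Ptprc with Aif1 (Spearman's rho = -0.70, adjusted permutation p = 0.126). The other 4 relations set each gene against the median of 18 phagocytic and lysosomal genes with values on all arrays, a median between 0.22 and 0.40. Here r was -0.60 for Itgam (rho -0.63), -0.60 for Coro1a (rho -0.68), -0.69 for Ptprc (rho -0.48) and 0.13 for Aif1 (rho -0.05). The permutation p values of r were 0.0529, 0.0476, 0.0154 and 0.705, and adjusted over the 10 relations they were 0.167, 0.167, 0.154 and 0.882. By Pearson's r, 0 of 10 relations passed adjusted and 2 of 10 unadjusted. The 2 measures differed in which relations stood out. By Spearman's rho the unadjusted permutation p was 0.0199 for Ptprc with Aif1. With the phagocytic and lysosomal median it was 0.0445 for Itgam, 0.0253 for Coro1a, 0.136 for Ptprc and 0.880 for Aif1. The smallest adjusted permutation p by rho was 0.126.

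These relations depended on single arrays. That of Itgam was r = -0.82 without array 10 (adjusted permutation p = 0.0364), and -0.83 without arrays 9 and 10 (adjusted exact permutation p = 0.0640). With the dye of both arrays exchanged it was -0.80 (adjusted permutation p = 0.0498). That of Ptprc was -0.79 without array 9 (adjusted permutation p = 0.0437). Within the 6 Cy3 arrays r was -0.39 for Itgam, -0.74 for Coro1a and -0.82 for Ptprc, with adjusted exact permutation p of 0.731, 0.306 and 0.306. No correlation was computed within the 5 Cy5 arrays. All points share the arrays and the centring of each array on its mean.

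Coro1a was also set against neuronal genes, a relation chosen after the array values were seen. Its p-values do not cover the choice of this relation or of this list, so they are a description. The median of 15 neuronal genes lay between -0.43 and 0.03 by array, lowest on arrays 4, 3 and 10. With it Coro1a had r = 0.88 and rho = 0.81 over 11 arrays (permutation p = 0.00041 and 0.0038; 0.0016 and 0.0152 adjusted over 4 genes). Itgam had r = 0.14, Ptprc 0.45 and Aif1 -0.05, and that of Ptprc was 0.74 without array 4 (adjusted permutation p = 0.0222). Of the 4111 probes with values on all arrays, 2.26% had an r with the neuronal median at least as high as Coro1a. Without arrays 4 and 10, the farthest from the median of Coro1a, r was 0.64 and rho 0.67 (adjusted exact permutation p = 0.220 and 0.236). The relation thus did not pass without them. Leaving out its extreme values also narrows the range and leaves 9 arrays, so this does not show that it rests on them. Without arrays 9 and 10 r was 0.78 (0.0385), and within the 6 Cy3 arrays 0.92 (0.278, both exact permutation tests adjusted over 4 genes). Leaving out any 1 array gave between 0.80 and 0.94.

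**Figure D5:**
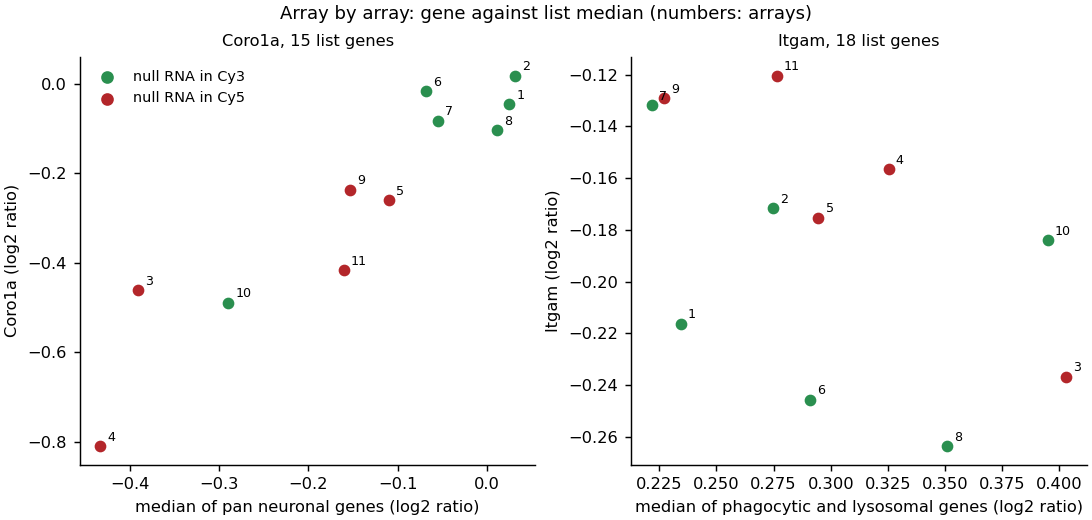
Log2 ratio of single genes (vertical axes) against the median log2 ratio of a gene list on the same array (horizontal axes), with arrays numbered and dyes in colour. Coro1a and the neuronal median are both low on arrays 3, 4 and 10.

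The probes most like each gene over dye-centred array values were sought among 3814 named probes with values on all arrays. They are a description of 11 arrays that share their centring. For Coro1a they were Chst2 (r = 0.97), Zfand3 (0.96) and Akt1 (0.96). For Ptprc they were Ube2h (0.91), Herc2 (0.91) and Taf1 (0.89), and for Aif1 Uba1y (0.89), Atp6ap1 (0.86) and Igf1r (0.86). For Itgam, with little variation to share, they were Slc22a8 (0.82), Pts (0.80) and Nek4 (0.75). Genes that follow a member array by array need not share its ratio: Zfand3 was at -0.01 ± 0.05 and Pts rose by 0.14 ± 0.04, and the call of Pts was lost without array 7 (limma adjusted p = 0.0524).

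The nearest tested genes on the same chromosomes showed no more calls than genes elsewhere. Of the 16 nearest tested genes, 2 on each side of each member, 3 rose and 1 fell, so 4 of 16 passed, against 28.9% of all genes, with a median of -0.03. Next to Coro1a, Sult1a1, a sulfotransferase 9.3 kb away, rose by 0.34 ± 0.07 (SE, n = 9; limma adjusted p = 0.0051). Nek7, 308.1 kb from Ptprc, rose by 0.24 ± 0.05. Beside Aif1 in the major histocompatibility region, Lst1, a leukocyte transcript 9.0 kb away, fell by 0.16 ± 0.06 and Nfkbil1, 44.1 kb away, rose by 0.25 ± 0.08. Both calls were fragile. That of Lst1 was lost without any 1 array but 4 or 8 (limma adjusted p 0.0693 to 0.116), and that of Nfkbil1 without array 1, 2, 3, 7 or 10 (0.0540 to 0.0671). Pycard, an inflammasome adaptor 68.8 kb from Itgam, was at -0.11 ± 0.04 and did not pass (limma adjusted p = 0.0757).

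The promoter letters shown above can be set beside genes that rose. Of the 14 phagocytic and lysosomal genes that rose and had a promoter in the table, 9 held GAGGAA or TTCCTC (64.3%), as did 2 of 6 homeostatic genes and 3 of the 4 genes described here. Of all 27025 genes with a promoter, 31.3% held it. The core is thus present in Itgam, Ptprc and Aif1, which did not go up, and in genes that did. These counts describe the windows and were not tested.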

How the data were processed

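The authors deposited a log ratio for each probe on each array, read here as log2; no source used here gives its base, normalization or background correction. Columns are centred near 0, so a uniform shift would not show. Signal levels were not used. The arrays hold 4822 to 6316 values each. The platform annotation names 1 symbol for 6269 probes, several for 6 and no symbol for 581; names were updated to RefSeq, GRCm38.p6. The mutated gene is not reported here.

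Probes measured on 8 or more arrays, 3 or more per dye orientation, were fitted with limma 3.58.1 (R 4.3.3) with a mean and a dye term and Benjamini-Hochberg adjustment at 0.05. The mean was tested against 0, so the spread of wild-type samples is not covered. Tests were two-sided. Gene lists used the mean of a gene's probes and left out the 4 genes. Relations used 100000 permutations, or exact enumeration under 10 arrays. The fit was tested on simulated data.

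The 4 genes and the 15 lists were chosen with earlier results of these data known. Named genes are the 4, up to 4 called genes of smallest p per list, preset partners, the 3 most similar probes, and the 2 nearest tested genes on each side; Msr1 and Csf2rb2 were named after their values were seen, as the only genes of their lists that fell. Alternatives dropped the dye term, arrays 1 and 6, each array or 1 dye orientation, turned the sign of the Cy5 arrays, or changed centring, scaling, weights, filter, variance model or threshold. Added after seeing the data were fits without arrays 9 and 10, with their dye labels exchanged, and without arrays 3, 4 and 10, and the neuronal relation.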

Additional observations from a re-analysis of the deposited data

Results flagged for a closer look

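Within the arrays of 1 dye, 20 of 174 groups of values had an array far from the others by Dixon's criterion. The groups share arrays and include probes picked for likeness to the 4 genes. The count is therefore not set against a chance rate. Among the 4 genes it was 1 of 8: Coro1a on array 10, at -0.49, where the other Cy3 arrays lay between -0.10 and 0.02. Array 10 was also far from the other Cy3 arrays for Itgb2 (-1.14), Coro1c (-1.02), Csk (-0.38), Fyn (-0.33), Stx1a (-1.55), Syt1 (-0.76), Slco1c1 (-0.69), Akt1 (-0.86), Chst2 (-0.39), Csf2rb2 (0.073) and Prrc2a, a neighbour of Aif1 (-1.17). Among the Cy5 arrays, array 4 was far from the others for Cfl1 (-0.99), Fyn (-0.67), Gja1 (-0.33) and Cox6a2 (0.78). Array 9 was far from them for Msr1 (0.14). Array 6 was low for Laptm5 (0.73) and Vav1 (-0.33), and array 7 for Lcp2 (-0.72).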

How the results depend on the processing

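Itgam, Coro1a and Ptprc kept their sign in every setting that estimated null over wild type. Turning the sign of the Cy5 arrays exchanges the mean with the dye term, so that fit does not estimate this ratio. Its values of -0.019, 0.16 and 0.016 restate the dye differences of these genes on another scale. Its 4 called probes are those of the dye term, and it called 0 list genes. Leaving out 1 array gave -0.19 to -0.17 for Itgam, -0.30 to -0.23 for Coro1a, -0.25 to -0.18 for Ptprc and -0.02 to 0.01 for Aif1; leaving out arrays 3, 4 and 10 gave -0.18 for Coro1a. Single arrays left out gave 1202 to 1596 called probes, 55 to 67 called list genes and 0 to 341 probes with a dye term, where 1545, 68 and 4 were called. The Cy5 arrays alone called 454 probes (178 higher, 276 lower) and 26 list genes, with fewer arrays, and an adjusted p under 0.01 called 811 and 40. Probes with a dye term were 0 without arrays 1 and 6, with median centring, with values on all 11 or at least 4 arrays, and at 0.01. They were 126 with equal spread, 463 with array weights, 580 without arrays 9 and 10, 594 with their dye exchanged and 176 without arrays 3, 4 and 10. The dye difference of Coro1a was -0.30 with array weights (limma adjusted p = 0.0472). Those weights come from a fit with the dye term, so arrays that go against the dye pattern can count less. That setting is therefore no independent test of the difference. The difference was -0.44 without arrays 9 and 10 and -0.41 with their dye exchanged, settings chosen on the dye pattern itself and so no test of it. With 1 array left out it was -0.39 to -0.22. Those of Itgam, Ptprc and Aif1 were then 0.03 to 0.06, -0.10 to 0.04 and 0.02 to 0.09. Of 10 relations by Pearson's r, 0 to 1 passed with 1 array left out and 1 with the dye of arrays 9 and 10 exchanged. Spn was -0.078 on the Cy3 arrays. Without arrays 9 and 10, 6 homeostatic genes rose and 1 fell, and of the phosphatases 0 rose and 1 fell. Pan leukocyte genes that rose were then 4, endothelial and pericyte genes 3 and astrocyte genes 4. Among named genes, the calls of Lst1, Nek4, Ptpn6, Pts and Tmsb4x were lost without these arrays (limma adjusted p 0.0616 to 0.115), and Prrc2a passed (0.0383). No paired analysis was possible because the labels give 1 group of null samples against a pool. Signal over background is unknown, and precision is limited by the number of arrays.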
